A study of Mus musculus with 6 samples.

Results

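The genes for the nuclear pore and for the receptors and the GTPase cycle that carry cargo through it were followed in control KD and *Yy1* KD morulae. They were picked out by a rule on the gene symbol. It takes in symbols of nucleoporins, importins alpha and beta, transportins and exportins, and *Ran* with its exchange factor and its activator. Transport genes with other symbols, among them *Ranbp2*, *Ahctf1*, *Cse1l* and *Xpot*, fell outside the rule and are counted below with the further transport genes. 55 of the 55364 genes listed matched, and all 55 passed the filter on low values, which asked for 1 TPM or more in 3 or more of the 6 libraries. TPM is the number of read pairs per exon length, scaled to sum to 1000000 in each library. Both groups came from in vitro fertilised BDF1 x BDF1 embryos cultured in KSOM and injected at the zygote stage with siRNA. The siRNA was a control in 3 libraries and targeted *Yy1* in the other 3, and each library was made from total RNA of a pool of whole morulae with the SMART-Seq stranded kit.

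The nuclear pore complex is a ring-shaped channel through the nuclear envelope. Its scaffold is built from an outer ring and an inner ring, membrane nucleoporins hold it in the envelope, nucleoporins rich in phenylalanine and glycine fill the central channel, and filaments and a basket extend from its cytoplasmic and nuclear faces. Importins and exportins carry proteins and RNA through the channel, and the GTPase RAN, loaded with GTP by RCC1 in the nucleus and switched off by RANGAP1 at the cytoplasmic face, gives that traffic its direction. YY1 is a zinc finger transcription factor whose consensus is often found close to transcription starts.

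The 3 *Yy1* KD libraries held between 8.32 and 8.90 TPM of *Yy1*, against 89.8 to 100.2 TPM in the 3 control KD libraries (log2 fold change of TPM + 1 -3.32, limma adjusted p = 6.71e-05). Of the 10 morula markers, *Pou5f1* was at a mean of 706 TPM, *Nanog* at 322 TPM and *Cdx2* at 60.9 TPM in control KD morulae. The summed TPM of these 10 markers was 2236 to 2530 in control KD and 1896 to 2206 in *Yy1* KD libraries. Their log2 fold changes were below 0 in 8 and above it in 2. 1 of the 10, *Tfap2c*, was called lower (log2 fold change -0.54, limma adjusted p = 0.0174), beside 4.2% of all genes tested. *Cdh1* and *Krt8* had log2 fold changes of -0.80 and -0.45 and were not called (limma adjusted p = 0.125 and 0.231). The 11 markers of cumulus and granulosa cells, which surround the oocyte, summed to 1.48 to 3.44 TPM in control KD and 1.75 to 3.73 TPM in *Yy1* KD libraries, and *Has2*, *Tnfaip6*, *Pgr* and *Fshr* were listed at 0 in all 6. Recovered depth was between 12519597 and 24417789 read pairs in control KD and between 11793509 and 18674188 in *Yy1* KD libraries. Fewer cells and less RNA per cell cannot be told apart in pooled embryos, and p-values measure the spread between these pools alone, since the labels do not say whether they came from separate cultures. The part of the marker levels in the results was not tested.

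Of the 55 genes, 5 were downregulated in *Yy1* KD morulae (9.09%) and 0 were upregulated, where 4.2% of all 17353 genes tested were downregulated and 1.92% upregulated, 6.11% in all (limma, adjusted p under 0.05). These 5 were *Nup188* of the inner ring, the membrane nucleoporin *Ndc1*, the import receptors *Ipo9* and *Tnpo1*, and *Rangap1*. At an unadjusted limma p under 0.05, 10 of the 55 members were lower, where 14.4% of all genes tested were. At the same limit 7 of the 55 were higher, where 9.35% of all genes tested were. The members were expressed above most genes and were measured more precisely: 80.0% had a control KD mean of at least 20 TPM against 33.5% of all genes tested, and the median standard error (SE) of their log2 fold change was 0.09 against 0.21. Among genes with a control KD mean of at least 20 TPM, 4 of 44 members (9.09%) and 7.83% of all genes were called lower. With the limit set on the mean over all 6 libraries, which a gene can miss because it fell, as *Ndc1* did, 3 of 42 members (7.14%) and 6.85% of all genes were called lower, and 0 members and 3.55% of all genes were called higher.

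The members were spread on both sides of 0. Their median log2 fold change was 0.03 beside -0.02 over all genes tested, with 25 below 0 and 30 above it. The split moved with the scaling, to 20 below and 35 above with median-ratio scaling, 16 and 39 with quantile normalization, and 17 and 36 of 53 with limma-voom. The median size of the change was 0.15 on the log2 scale, less than the 0.26 over all genes tested, and it was under 0.2 in 33 of the 55. Their summed level was 5397 to 5565 TPM in the control KD and 5607 to 5785 TPM in the *Yy1* KD libraries. The 3 values of both groups did not overlap in 21 members (38.2%, beside 30.1% of all genes tested), and 11 of these were lower (17.2% of all genes tested) and 10 higher (12.9%) in the *Yy1* KD group.

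The count of 5 rested on all 6 libraries. It was 0 without control KD replicate 1, 0 without control KD replicate 2, 1 without control KD replicate 3, 3 without *Yy1* KD replicate 1, 1 without *Yy1* KD replicate 2 and 3 without *Yy1* KD replicate 3, fits in which fewer genes were called throughout. limma-voom on the recovered read pairs, with 53 of the members, called 9 lower (17.0%, beside 6.98% of all genes in that test) and 3 higher (5.66%, beside 5.13%). These limma-voom shares were not set beside genes of like level, and the members lie above most genes in level.

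**Figure D1:**
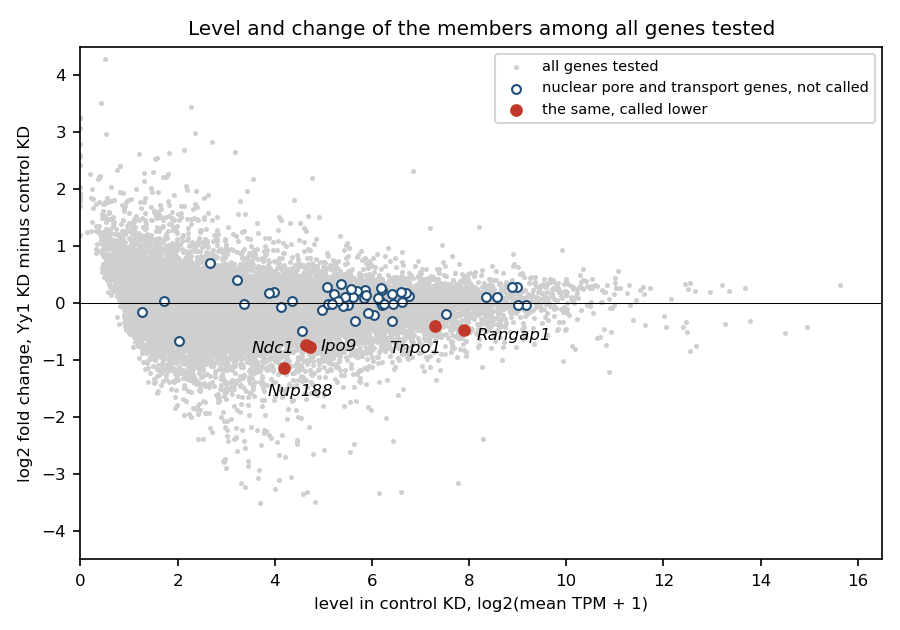
Each point is a gene; the x axis gives its control KD level as log2(mean TPM + 1) and the y axis its log2 fold change (*Yy1* KD minus control KD), with all 17353 genes tested in grey, members not called as open circles and the 5 called members in red. The open circles lie between -0.66 and 0.70, and most sit near 0 at levels above those of most genes.

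The sites of the YY1 consensus in the promoters of the members are shown because the knocked down factor binds it. They are matches of letters alone, and binding of YY1 at these sites was not tested. The consensus GCCATNTT, which reads AANATGGC on the other strand, was searched on both strands from 250 bases before to 50 bases after each RefSeq gene start (GRCm38.p6). The promoter table held 45 of the 55 members, and 5 of them (11.1%) had a site. The share was 6.96% over the 27025 genes of the table and 10.4% over the 9767 genes tested that it held, so the motif was about as frequent in members as in other expressed genes. The sites are given with 11 bases on each side, on the strand of the gene, with the consensus in capitals.
*Nup188*, chr2:30286302-30286331, plus strand, 103 bases before the start: accagggcagcGCCATCTTgacagccccat
*Nup188*, chr2:30286425-30286454, plus strand, base 21 after the start: ccgcgcgcgcgAAGATGGCggctgccgctg
*Nup205*, chr6:35177618-35177647, plus strand, base 14 after the start: agtcctcctccAAGATGGCggcgctgttgg
*Nup88*, chr11:70969936-70969965, minus strand, base 20 after the start: gctgttagttcAAGATGGCggctgccgtgg
*Nup50*, chr15:84923408-84923437, plus strand, 9 bases before the start: attcgagttacAAGATGGCggccccgggcg
*Xpo6*, chr7:126200613-126200642, minus strand, 130 bases before the start: tttcctttaccAAAATGGCcgcgtgtccct
The 3 sites after the start, in *Nup188*, *Nup205* and *Nup88*, covered the annotated start codon (GENCODE vM21). Of these 5 genes *Nup188* was called, *Nup205* and *Xpo6* had log2 fold changes of -0.31 and -0.49 (limma adjusted p = 0.0573 and 0.0614), and *Nup88* (log2 fold change -0.13, limma adjusted p = 0.441) and *Nup50* (log2 fold change 0.20, limma adjusted p = 0.216) were not called. The promoters of *Ndc1*, *Ipo9*, *Tnpo1* and *Rangap1* held no match to these letters in this window.

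The inner ring links the membrane of the pore to its channel. NUP188 and NUP205 are large related scaffold proteins that each pair with NUP93. *Nup188* (chromosome 2, 30286397 to 30344266, plus strand, GRCm38 as are all positions given) was at 17.7, 18.8 and 15.1 TPM in control KD libraries and at 7.36, 6.497 and 7.70 TPM in the *Yy1* KD libraries. Every *Yy1* KD value was thus below every control KD value, and the mean went from 17.2 ± 1.94 to 7.18 ± 0.619 TPM (SD, n = 3 each), 41.8% of the control. The difference was -1.15 on the log2 scale (SE 0.14, limma adjusted p = 0.0126; two-sided exact permutation p = 0.1, the smallest that 3 against 3 allows). Without control KD replicate 1 and without control KD replicate 2 the adjusted p was 0.0546 and 0.0518, and it stayed under 0.05 in the other 4 such fits.

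*Nup205* was the most abundant gene of the inner ring, with 86.7, 83.7 and 82.3 TPM in control KD and 70.5, 68.6 and 64.4 TPM in *Yy1* KD libraries. The groups did not overlap, the mean was 80.5% of the control, and a change of -0.31 on the log2 scale (SE 0.07) missed the threshold (limma adjusted p = 0.0573). limma-voom, chosen after the data were seen, gave an adjusted p of 0.0432. Their partner *Nup93* was at 35.8, 45.3 and 39.0 TPM in control KD and at 55.6, 52.8 and 44.4 TPM in *Yy1* KD libraries, values that overlapped (log2 fold change 0.34, limma adjusted p = 0.163). The membrane-binding *Nup35* had a log2 fold change of 0.14 (limma adjusted p = 0.564), and *Nup155* stood at 33.1 ± 2.15 and 32.6 ± 0.148 TPM (SD, n = 3 each). The summed level of the 5 inner ring genes was 225 to 238 TPM in control KD and 214 to 238 TPM in *Yy1* KD libraries.

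*Nup188* shares its start region with *Dolk*, the dolichol kinase gene of protein glycosylation, which is transcribed the other way from a RefSeq start 62 bases before that of *Nup188*. The *Nup188* site that lies 103 bases before its start falls within *Dolk*, at base 35 after the start of *Dolk*, and reads AANATGGC on the strand of *Dolk*. The other *Nup188* site lies 89 bases before the start of *Dolk* and reads AANATGGC on the opposite strand. *Dolk* was at 8.54, 7.87 and 10.6 TPM in control KD and at 0.859, 0.519 and 2.4 TPM in *Yy1* KD libraries. Its groups did not overlap, its mean was 14% of the control, and the difference was -2.22 on the log2 scale (SE 0.32, limma adjusted p = 0.0178; 1 of the 6 fits that left out a library called it, with adjusted p up to 0.0764). In the library with the fewest it was covered by 6 read pairs. 14 members had an annotated gene starting on the other strand within 1000 bases. Of the 12 such neighbours tested, *Dolk* was downregulated, and the other 11 had log2 fold changes between -0.45 and 0.44, with adjusted p-values of 0.106 or more.

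Of the exonic length of *Nup188*, 12.4% is shared with *Gm28038* or *Gm14471*, and read pairs there were divided between genes without regard to strand. *Gm28038*, a protein-coding gene model on the same strand that runs from upstream of *Nup188* into it (30281043 to 30301078), was lower as well, with 26.3, 25.9 and 26.9 TPM in control KD and 8.54, 9.62 and 9.34 TPM in *Yy1* KD libraries (log2 fold change -1.43, limma adjusted p = 0.00262). *Gm28038* held between 17 and 101 read pairs per library, where *Nup188* held between 223 and 1214. It shares 284 exonic bases with *Nup188*, and divided read pairs enter the values of both genes. The fall of *Gm28038* is therefore not an observation independent of *Nup188*. How far these shared reads set the value of *Nup188* was not tested. *Dolk* and *Gm28038* are no members and were named after their values were seen.

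**Figure D2:**
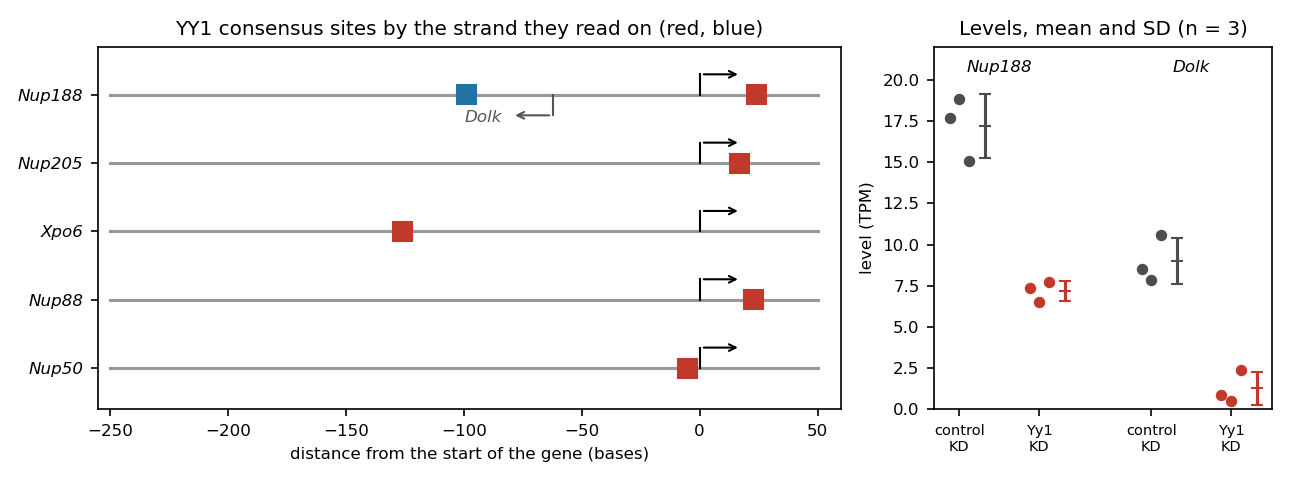
Left, matches to the YY1 consensus from 250 bases before to 50 after the start of 5 members (x axis, bases from the start; arrows, direction of transcription; red, the form that begins with AA on the strand of the gene; blue, its reverse complement). Right, the level of *Nup188* and *Dolk* (TPM) in each library with mean and SD (n = 3); the 3 *Yy1* KD points of both genes lie below all their control KD points.

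NDC1, POM121 and NUP210 span the membrane and anchor the pore. *Ndc1* (chromosome 4, 107367784 to 107416346, plus strand) was at 24.03, 20.1 and 27.98 TPM in control KD and at 14.5, 12.9 and 14.5 TPM in *Yy1* KD libraries. All 3 *Yy1* KD values were below the lowest control KD value, and the mean went from 24.04 ± 3.94 to 13.99 ± 0.922 TPM (SD, n = 3 each). The difference was -0.73 on the log2 scale (SE 0.14, limma adjusted p = 0.0360), and with any 1 library left out the adjusted p was between 0.0525 and 0.112. *Nup210* was a low gene, at 2.56, 2.904 and 3.70 TPM in control KD and 1.31, 1.08 and 2.45 TPM in *Yy1* KD libraries. Its groups did not overlap, with a log2 fold change of -0.66 that was not called (limma adjusted p = 0.194; 0.0298 with limma-voom). *Nup210l*, a relative of *Nup210*, was lower still in level, at 1.41 ± 0.107 and 1.19 ± 0.379 TPM (SD, n = 3 per group; log2 fold change -0.15, limma adjusted p = 0.746). *Pom121* was the most abundant of these genes, with 77.9, 77.5 and 63.9 TPM in control KD and 57.0, 70.0 and 89.2 TPM in *Yy1* KD libraries. It varied more between *Yy1* KD libraries than between the groups (log2 fold change -0.04, SE 0.17, limma adjusted p = 0.924).

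The outer ring, or Y complex, is a part of the scaffold that joins the pore early after mitosis. None of its 8 genes was called. Their log2 fold changes ran from -0.03 to 0.26, 6 of them above 0 (all 8 with median-ratio scaling or quantile normalization), and their summed level was 384 to 402 TPM in control KD and 419 to 429 TPM in *Yy1* KD libraries. *Nup85* was the most abundant, with 75.7, 70.7 and 78.0 TPM in control KD and 75.1, 67.5 and 78.7 TPM in *Yy1* KD libraries. These values interleave (log2 fold change -0.02, SE 0.09, limma adjusted p = 0.911). *Seh1l* was the 1 gene of the ring whose groups did not overlap, at 69.9, 68.4 and 78.1 TPM against 81.2, 93.1 and 86.0 TPM (log2 fold change 0.26, SE 0.09, limma adjusted p = 0.135). *Nup133* had a log2 fold change of 0.25 (limma adjusted p = 0.235) and *Nup37*, the least abundant at 13.6 ± 2.44 TPM in control KD (SD, n = 3), of 0.17 (limma adjusted p = 0.596). *Sec13*, which the outer ring shares with the COPII vesicle coat, stood at 68.8 ± 5.52 and 73.9 ± 10.9 TPM (SD, n = 3 each). *Nup107*, *Nup160* and *Nup43* had control KD means of 42.5, 38.3 and 35.1 TPM and *Yy1* KD means of 45.5, 39.5 and 34.3 TPM.

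The 5 genes of the central channel had log2 fold changes above 0 under each of the scalings tried, and none was called. *Nup62*, the core of the channel and its most abundant gene, was at 87.8, 89.7 and 76.8 TPM in control KD and at 85.6, 93.0 and 105 TPM in *Yy1* KD libraries. The groups overlapped (log2 fold change 0.15, SE 0.10, limma adjusted p = 0.429). Its X-linked relative *Nup62cl* was at 6.66, 4.99 and 4.38 TPM in control KD and at 11.9, 8.38 and 7.77 TPM in *Yy1* KD libraries. This was the highest log2 fold change of all 55 genes, 0.70 (SE 0.22), and the groups did not overlap, but it was not called (limma adjusted p = 0.111; 0.0398 with limma-voom). *Nup98*, whose transcript encodes both NUP98 and NUP96, did not overlap between groups either, at 60, 61.4 and 49.8 against 65.6, 64.6 and 71.4 TPM (log2 fold change 0.24, limma adjusted p = 0.227). *Nup54* and *Nupl1*, the partners of *Nup62*, had log2 fold changes of 0.21 and 0.20 (limma adjusted p = 0.253 and 0.414). A share of 55.4% of the exonic length of *Nupl1* is shared with other gene models, which makes its value uncertain.

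On the cytoplasmic face, where messenger RNA is released, none of 5 genes was called. *Aaas* was the most abundant at 85.9, 70.3 and 62.2 TPM in control KD and 98.5, 76.7 and 81.2 TPM in *Yy1* KD libraries, which overlap (log2 fold change 0.23, SE 0.15, limma adjusted p = 0.392). *Nup214* was higher in each *Yy1* KD library, at 39.2, 41.8 and 38.9 TPM against 31.97, 35.1 and 31.4 TPM, without passing the threshold (log2 fold change 0.28, limma adjusted p = 0.115). The mRNA export factor gene *Rae1* had a log2 fold change of -0.22 (limma adjusted p = 0.305), and *Nupl2* stood at 9.37 ± 2.48 and 9.20 ± 1.88 TPM (SD, n = 3 each). In the nuclear basket, *Tpr* was at 193, 171 and 182 TPM in control KD and at 164, 160 and 153 TPM in *Yy1* KD libraries. Its groups did not overlap (log2 fold change -0.19, SE 0.07, limma adjusted p = 0.173). *Nup153*, which anchors the basket, stood at 97.6 ± 5.55 and 98.5 ± 4.58 TPM (SD, n = 3 each), and *Nup50* was at 88.8, 98.0 and 101.4 TPM against 118, 107 and 106 TPM, higher in each *Yy1* KD library.

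**Figure D3:**
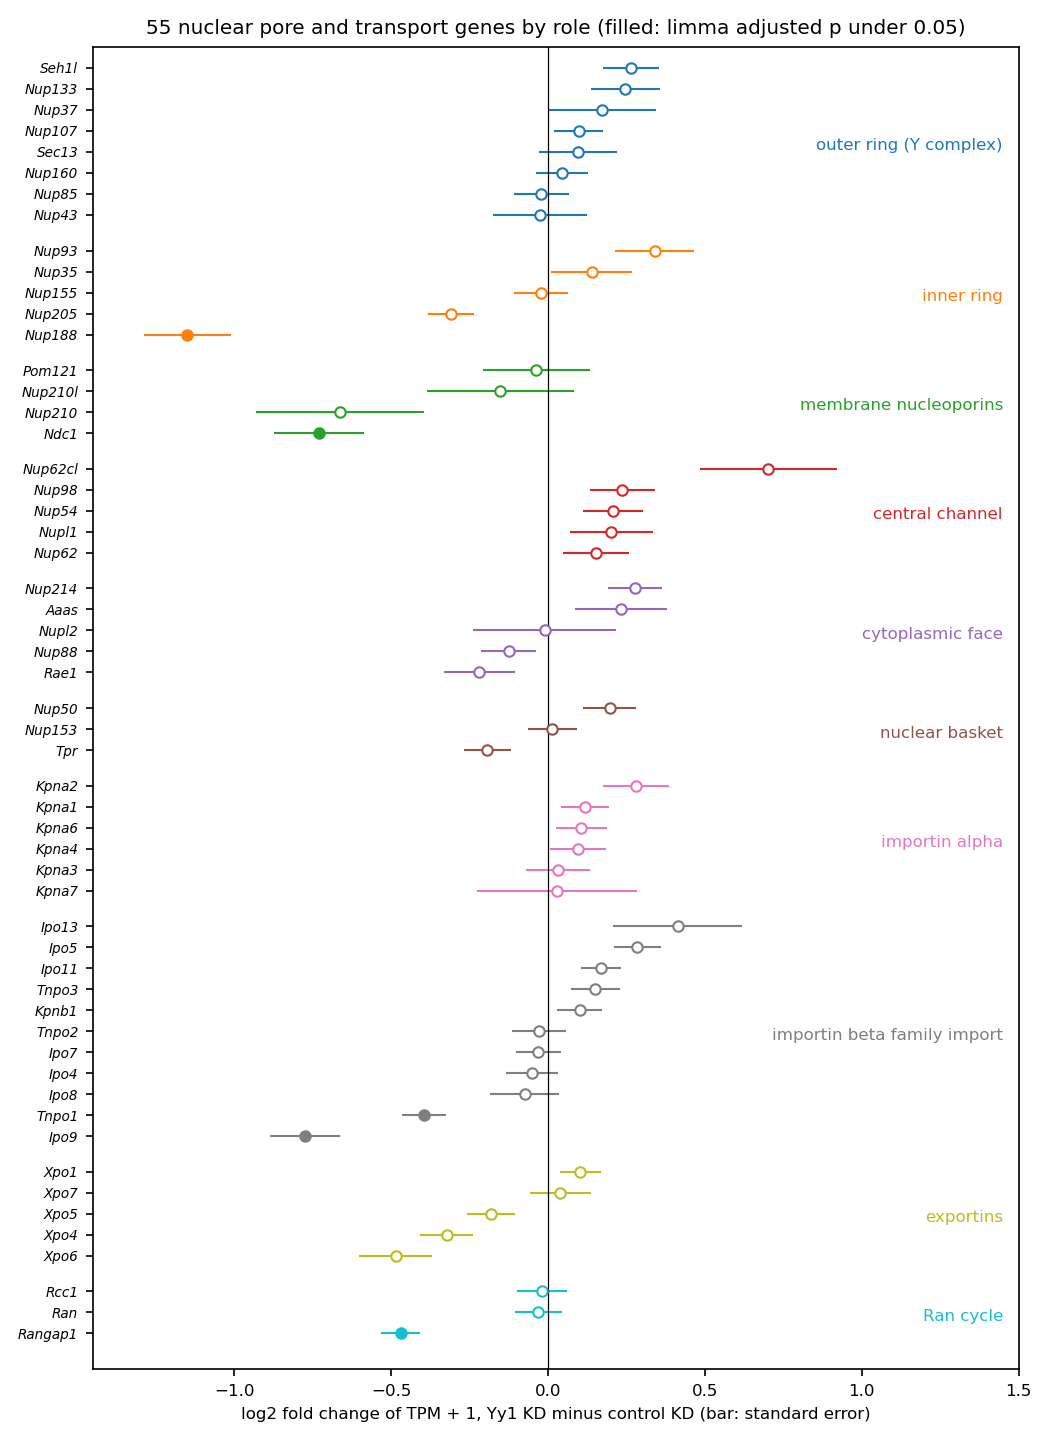
Log2 fold change of TPM + 1 (x axis, *Yy1* KD minus control KD) of the 55 genes with its standard error as a bar, ordered within their roles; filled points are the 5 genes with a limma adjusted p under 0.05. The filled points all lie left of 0, from -1.15 for *Nup188* to -0.40 for *Tnpo1*.

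Importin alpha proteins read the classical nuclear localisation signal and importin beta, the product of *Kpnb1*, carries them through the pore. All 6 genes for importin alpha were detected and 0 were called. *Kpna2* took most of their summed level, with 567, 495 and 450 TPM in control KD and 658, 603 and 570 TPM in *Yy1* KD libraries. Its lowest *Yy1* KD value lay just above its highest control KD value (log2 fold change 0.28, SE 0.10, limma adjusted p = 0.164; 0.0302 with limma-voom). *Kpna2* has a processed pseudogene, *Kpna2-ps*, at 1.605 to 5.42 TPM, and read pairs that fit both places equally may be missing from both. In control KD the other importin alpha genes followed in the order *Kpna1* (108 ± 5.93 TPM), *Kpna3* (70.4 ± 6.57 TPM), *Kpna4* (55.9 ± 2.76 TPM), *Kpna6* (47.8 ± 2.60 TPM) and *Kpna7* (2.29 ± 0.905 TPM; SD, n = 3 each). *Kpna7*, an importin alpha of oocytes and early embryos, was thus low and stood at 2.27 ± 0.168 TPM in *Yy1* KD morulae.

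Among the 11 import receptors of the importin beta family, 2 were downregulated, beside 4.2% of all genes tested, and a count this small says nothing particular about the family. *Ipo9* (chromosome 1, 135382312 to 135430499, minus strand), a receptor for histones H2A and H2B, was at 24.8, 24.6 and 27.3 TPM in control KD and at 13.4, 14.2 and 16.1 TPM in *Yy1* KD libraries. The ranges were far apart, and the mean went from 25.6 ± 1.503 to 14.6 ± 1.35 TPM (SD, n = 3 each), 56.9% of the control. The difference was -0.77 on the log2 scale (SE 0.11, limma adjusted p = 0.0167). It was called without *Yy1* KD replicate 1 (adjusted p = 0.0475) and without *Yy1* KD replicate 3 (0.0396), and the adjusted p was between 0.0560 and 0.0742 in the other 4 fits that left out a library.

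*Tnpo1* (chromosome 13, 98839019 to 98926384, minus strand) encodes transportin 1, the receptor for many RNA-binding proteins. It was at 147, 160 and 163 TPM in control KD and at 123, 117 and 117 TPM in *Yy1* KD libraries. The groups did not overlap, and the mean went from 157 ± 8.21 to 119 ± 3.25 TPM (SD, n = 3 in both groups), a change of -0.40 on the log2 scale (SE 0.07, limma adjusted p = 0.0300). With any 1 library left out the adjusted p was between 0.0629 and 0.106. Its close relative *Tnpo2* stood at 44.2 ± 2.15 and 43.3 ± 2.47 TPM (SD, n = 3 each), and *Tnpo3*, the receptor for SR splicing factors, was slightly higher in each *Yy1* KD library (log2 fold change 0.15, limma adjusted p = 0.304). Whether *Tnpo1* differed from *Tnpo2* in its response was not tested.

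The most abundant import receptors were not called. *Ipo7* was at 543, 523 and 485 TPM in control KD and at 520, 485 and 511 TPM in *Yy1* KD libraries (log2 fold change -0.03, SE 0.07, limma adjusted p = 0.836). These values overlap almost fully. *Ipo5*, which carries ribosomal proteins and histones, was at 459, 477 and 486 TPM in control KD and at 538, 612 and 585 TPM in *Yy1* KD libraries. It was higher in each *Yy1* KD library, with a change of 0.29 on the log2 scale (SE 0.07, limma adjusted p = 0.0731; 0.00970 with limma-voom). *Kpnb1* was at 354 to 399 TPM in control KD and 393 to 414 TPM in *Yy1* KD libraries (log2 fold change 0.10, limma adjusted p = 0.446). *Ipo11* and the low *Ipo13* had log2 fold changes of 0.17 and 0.41 (limma adjusted p = 0.170 and 0.284). *Ipo4*, with 55.3% of its exonic length shared with a further gene model, and *Ipo8* stayed within 0.1 of 0 on the log2 scale.

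**Figure D4:**
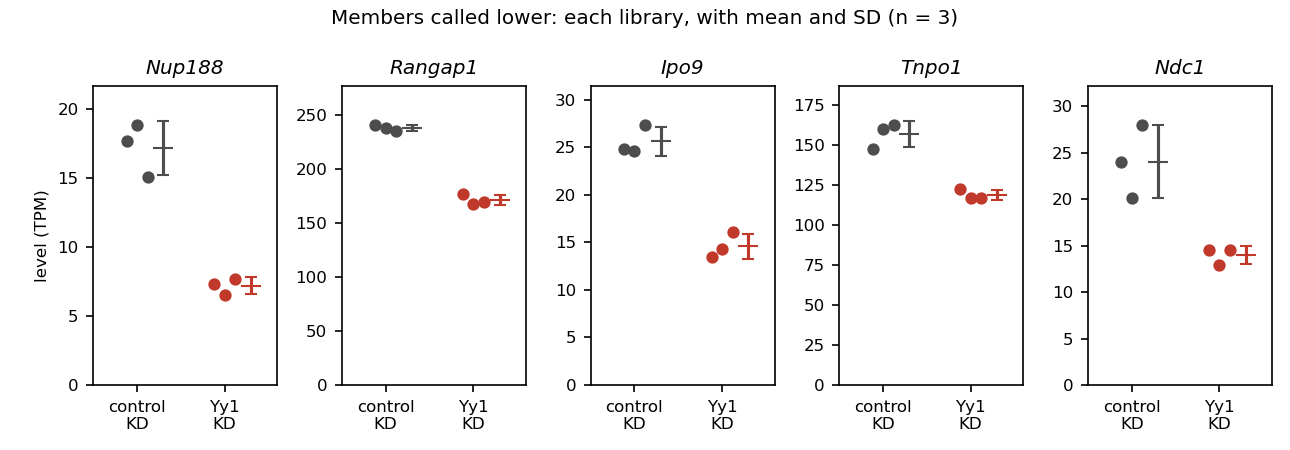
Level (TPM, y axis from 0) of the 5 downregulated members in each of the 3 control KD (grey) and 3 *Yy1* KD (red) libraries, with the mean and SD beside the points. In each panel the 3 red points lie below the 3 grey points.

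Exportins carry cargo out of the nucleus. *Xpo1*, the receptor for the leucine-rich export signal, was by far the most abundant of the 5, with 324, 334 and 321 TPM in control KD and 335, 361 and 357 TPM in *Yy1* KD libraries. The groups were separated by a fraction of a TPM (log2 fold change 0.10, SE 0.06, limma adjusted p = 0.386). In 3 other exportins every *Yy1* KD value was below every control KD value, as in 17.2% of all genes tested. 0 of the 5 passed the threshold, and counts this small say nothing particular about the exportins. *Xpo6*, which exports actin, was at 23.4, 22.3 and 21.6 TPM in control KD and at 14.02, 15.7 and 17.7 TPM in *Yy1* KD libraries (log2 fold change -0.49, SE 0.12, limma adjusted p = 0.0614; 0.00919 with limma-voom). *Xpo4* was at 48.1, 47.2 and 52.1 TPM against 39.8, 37.0 and 40.4 TPM (log2 fold change -0.32, limma adjusted p = 0.0750; 0.0387 with limma-voom). *Xpo5*, the exporter of microRNA precursors, had the smallest difference of these, with a log2 fold change of -0.18 (limma adjusted p = 0.214). *Xpo7* stood at 19.4 ± 1.001 and 19.97 ± 0.779 TPM (SD, n = 3 each).

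In the RAN cycle, the gene for the activator fell while the levels of the GTPase and of its exchange factor overlapped between groups. *Rangap1* (chromosome 15, 81704248 to 81745530, minus strand) was at 241, 238 and 235 TPM in control KD and at 177, 168 and 170 TPM in *Yy1* KD libraries. The spread within each group was small beside the gap between them, and the mean went from 238 ± 2.88 to 172 ± 4.68 TPM (SD, n = 3 each), 72.1% of the control. The difference was -0.47 on the log2 scale (SE 0.06, limma adjusted p = 0.0130). It was called without *Yy1* KD replicate 1 (adjusted p = 0.0360) and without *Yy1* KD replicate 3 (0.0458), and the adjusted p was between 0.0525 and 0.0608 in the other 4 fits that left out a library. *Ran*, the most abundant of all 55 genes, was at 569, 581 and 585 TPM in control KD and at 615, 536 and 550 TPM in *Yy1* KD libraries (log2 fold change -0.03, SE 0.08, limma adjusted p = 0.842). *Rcc1* stood at 85.9 ± 5.91 and 84.7 ± 2.96 TPM (SD, n = 3 each). That *Rangap1* differed from *Ran* or *Rcc1* in its change was not tested.

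**Figure D5:**
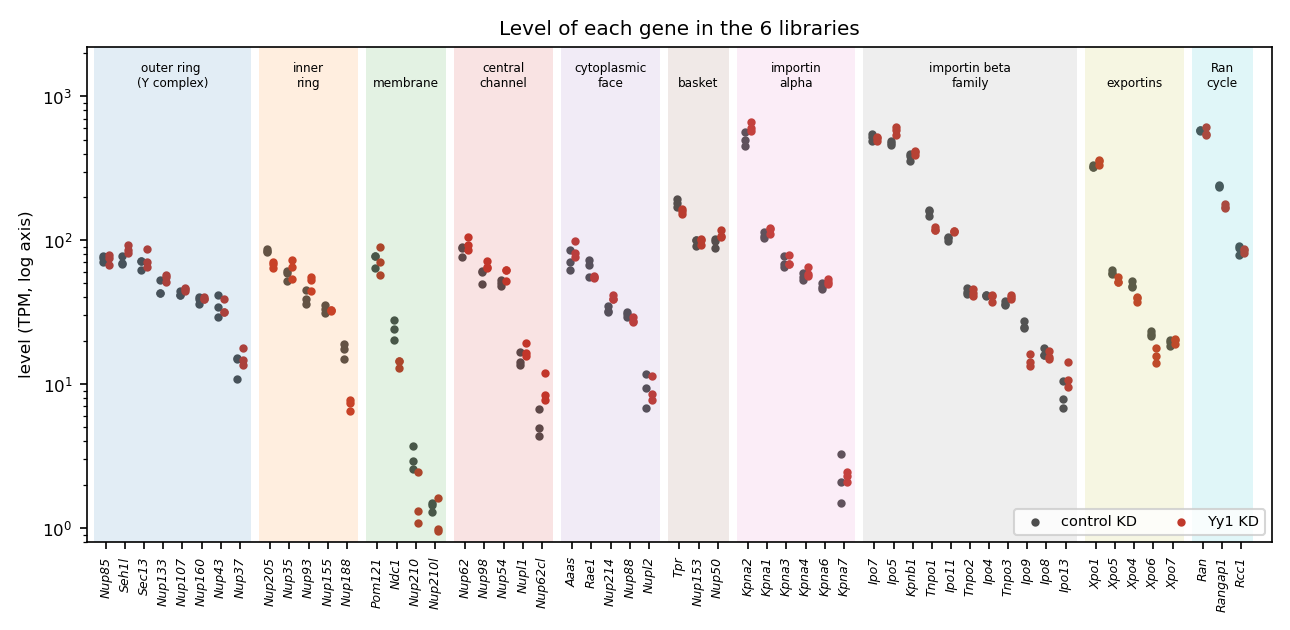
Level (TPM, log axis) of each of the 55 genes in the control KD (grey) and *Yy1* KD (red) libraries, grouped by role and ordered by control KD mean. *Ran*, *Ipo7*, *Kpna2*, *Ipo5*, *Kpnb1* and *Xpo1* lie above all other members in both groups, and most scaffold genes lie between 10 and 100 TPM.

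In level per exon length, the transport genes and the genes of the pore overlapped widely. The 6 most abundant members were *Ran*, *Ipo7*, *Kpna2*, *Ipo5*, *Kpnb1* and *Xpo1*, with control KD means of 326 TPM or more, while other carriers lay within or below the range of the nucleoporins, such as *Xpo6* (22.4 TPM), *Ipo8* (16.6 TPM), *Ipo13* (8.38 TPM) and *Kpna7* (2.29 TPM). *Ran* (579 ± 8.04 TPM) lay above *Ipo7* (517 ± 29.3 TPM), *Kpna2* (504 ± 59.1 TPM) and *Ipo5* (474 ± 13.9 TPM; SD, n = 3 each) in every control KD library, while the values of these other three overlapped. Of the structural genes, *Tpr* was the highest, at 182 ± 11.1 TPM (SD, n = 3), and scaffold genes that are parts of the same ring differed several-fold, from 13.6 TPM for *Nup37* to 74.8 TPM for *Nup85* in the outer ring and from 17.2 TPM for *Nup188* to 84.3 TPM for *Nup205* in the inner ring (control KD means). The members lay on 17 chromosomes, and 34 of the 53 with an annotation shared no exonic sequence with another gene, among them *Ndc1*, *Ipo9* and *Tnpo1*. *Rangap1* shared 1.34%.

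Of 24 further transport genes outside the rule, all tested, 2 were called, both higher in the *Yy1* KD libraries, beside 1.92% of all genes tested called higher and 4.2% called lower. *Ddx19b*, a helicase gene of the last step of mRNA export, was at 29.7, 33.2 and 35.8 TPM in control KD and at 69.0, 56.3 and 58.8 TPM in *Yy1* KD libraries (log2 fold change 0.88, SE 0.11, limma adjusted p = 0.0130; called in 3 of the 6 fits that left out a library). Its relative *Ddx19a*, named after its value was seen because reads of these similar genes can be hard to place, had a log2 fold change of -0.25 (limma adjusted p = 0.172). *Senp2*, a SUMO protease of the pore, went from 43.2 ± 3.16 to 59.99 ± 3.004 TPM (SD, n = 3 per group; log2 fold change 0.47, limma adjusted p = 0.0339; called in 0 of those fits). Of the 15 identifiers tested for the mRNA export complex TREX, 1 was called, also higher. *Alyref*, its export adaptor, was at 76.2, 76.6 and 74.9 TPM in control KD and at 124, 121 and 117 TPM in *Yy1* KD libraries (log2 fold change 0.66, SE 0.07, limma adjusted p = 0.00855; each of the 6 fits with a library left out called it). The median log2 fold change was -0.05 in the first list and 0.01 in the second, beside -0.02 over all genes tested. In the first list 14 genes were below 0 and 10 above it, and in the second 6 were below and 9 above.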

How the data were processed

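RNA-seq was performed on 3 control KD and 3 *Yy1* KD pools of morulae, grouped by their titles. Per the labels and the methods of the study, the authors trimmed the reads (Trim Galore 0.6.7), aligned them to mm10 (HISAT2 2.2.1), removed ribosomal reads (bedtools), counted pairs on GENCODE vM25 (featureCounts 2.0.1, strand ignored, pairs on several genes divided) and deposited TPM per gene and library.

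Here, log2(TPM + 1) was fitted with limma (3.58.1, R 4.3.3) with a variance trend, over genes with at least 1 TPM in at least 3 libraries. Two-sided p-values were Benjamini-Hochberg adjusted over all 17353 genes tested and called under 0.05. Fold changes on this scale understate those of low genes. ± gives the SD. The fit was run on simulated data, with planted changes of sizes that no member but *Nup188* reached. It therefore does not show how often changes as small as those of the other members are called.

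The members and lists were chosen with earlier results of these data known. By rule, members called and the most abundant gene of each role are given with full statistics, other members by log2 fold change and adjusted p, and genes of the pathway lists where called. Values per library of further members were added after they were seen. Coordinates and exon lengths came from GENCODE vM21 (GRCm38), which matched 98.1% of identifiers and 53 of 55 members, and promoters from RefSeq (GRCm38.p6). TPM multiplied by exon length gave read pairs. Of values under 20 pairs, 80.6% to 81.6% per library were whole within 0.01, and 99.3% to 99.4% were multiples of a sixth of a pair, as division between genes gives. Protein sequences were not used here. *Kpna1*, *Kpna3*, *Kpna6*, *Nup210l*, *Nup35*, *Nup43*, *Nup85*, *Seh1l*, *Xpo4* and *Xpo7* had no entry in the promoter table. Alternatives were a pseudocount of 0.1, no filter, a mean of at least 5 TPM, robust variances, no variance trend, quantile normalization, median-ratio scaling, a replicate block, each library left out, and limma-voom on read pairs.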

Additional observations from a re-analysis of the deposited data

How the results depend on the processing

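Beside 5 members lower and 0 higher, and 728 genes lower and 333 higher over all genes tested, the counts moved by more than 1.5 times as follows. Without a filter 3 members, 270 lower and 77 higher genes were called. *Tnpo1* and *Ndc1* were then not called (limma adjusted p = 0.06 and 0.0769). Without a variance trend the counts were 2 members, 382 and 132. In that fit *Rangap1*, *Tnpo1* and *Ndc1* were not called (limma adjusted p = 0.0651, 0.0982 and 0.0659). limma-voom on recovered read pairs, chosen after the data were seen, called 9 members lower (*Xpo4*, *Xpo6*, *Nup205* and *Nup210* beside the 5) and 3 higher (*Ipo5*, *Kpna2* and *Nup62cl*), with 1181 lower and 869 higher genes. With 1 library left out, between 0 and 3 members, 53 to 326 lower and 22 to 92 higher genes were called. With a replicate block, 0 members, 218 lower and 69 higher genes were called, with adjusted p-values of the 5 members between 0.0512 and 0.0893. Deviations of same-numbered libraries correlated at -0.004, 0.03 and 0.07, and those of differently numbered ones at -0.07 to 0.04. With 3 libraries per group these values cannot decide whether the numbers pair the pools. The main fit used no block. With a mean TPM of at least 5, *Xpo6* and *Nup205* were called as well (adjusted p = 0.0401 and 0.0441). With quantile normalization *Tnpo1* was not (adjusted p = 0.0505), and 548 lower and 388 higher genes were called.

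The members' median log2 fold change was between 0.008 and 0.08 under all 15 alternatives, and that of *Yy1* between -3.45 and -3.26. Of all 55 members, 16 turned sign in at least 1 alternative, none of them called and all within 0.0955 of 0 on the log2 scale, and 11 of these did so with all libraries kept. Among the genes named with a fold change these were *Nup85* (0.0039 with median-ratio scaling, 0.046 with quantile normalization, 0.020 with limma-voom, -0.069 to 0.04 with a library left out), *Pom121* (0.032 with quantile normalization, -0.20 to 0.12 with a library left out), *Ran* (0.011 with limma-voom, -0.092 to 0.0082 with a library left out) and *Ipo7* (0.011 with limma-voom, -0.076 to 0.0052 with a library left out). The lowest count of a member was 27 read pairs, for *Nup210l* in 1 library. The causes of these shifts were not tested.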
